A study of Rattus norvegicus with 6 samples.

Results

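CHG regions in CpG islands are short stretches of DNA whose cytosines in the CHG context (H is any base other than G) differed in methylation between stressed and unstressed rats, and which the authors' annotation places in a CpG island. They were chosen by that annotation alone: all rows of a region were joined, and every CHG region with a CpG island row was taken. This gave 319 regions of the 9017 annotated CHG regions, and of 24862 annotated regions in all contexts. The 319 regions lay in 308 islands and were assigned to 335 gene symbols or identifiers, and 19 of them had no gene.

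The cells were brain microvascular endothelial cells (BMECs), sorted as CD45-/CD31+ from the hippocampus of adult male Sprague-Dawley rats. The CUMS group (3 samples) had gone through chronic unpredictable mild stress for 8 weeks, in which a different mild stressor was given from day to day, and the Ctrl group (3 samples) stayed unstressed in the home cage. No genotype or drug distinguished the groups. CUMS models stress exposure as a whole, so no single stressor can be told apart, and only males were sampled. The purity of the sort could not be checked here, since the tables hold methylation of listed regions and no expression. Of 44 cell type marker genes, 0 carried one of the 319 regions. The marker list of each cell type held at most 4 CHG regions in any place, and 3.54% of all CHG regions lay in islands. A count of 0 is therefore near the background and says nothing about purity.

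Most methylation of mammalian DNA sits on cytosines followed by G (CG), where maintenance methylation copies the mark after replication. CHG methylation is abundant in plants but scarce in most mammalian cells, where non-CG marks depend on the de novo enzymes and are best known from neurons, oocytes and pluripotent cells. CpG islands are CG-rich stretches, often at promoters, and their CG cytosines usually carry little methylation.

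The letters behind the 2 contexts are shown on upstream sequences of genes whose transcription start site (TSS) lay in one of these regions. They are the 3 genes with higher and the 3 with lower CHG level in CUMS that had the largest differences and a RefSeq entry, a choice made after the values were seen. Each run is the 250 bases before the gene's start in RefSeq (GRCr8), written 5′ to 3′ on the strand of the gene. Capitals mark the trinucleotides that hold a CHG cytosine, which are CAG and CTG (on both strands) and CCG and CGG (on 1 strand only). The regions themselves are placed on another assembly (mRatBN7.2), and the RefSeq start need not be the annotated TSS. Whether a region lies within, beside or away from these bases is therefore not known.
Igfbp2 (chr9:81864561-81864810, plus strand): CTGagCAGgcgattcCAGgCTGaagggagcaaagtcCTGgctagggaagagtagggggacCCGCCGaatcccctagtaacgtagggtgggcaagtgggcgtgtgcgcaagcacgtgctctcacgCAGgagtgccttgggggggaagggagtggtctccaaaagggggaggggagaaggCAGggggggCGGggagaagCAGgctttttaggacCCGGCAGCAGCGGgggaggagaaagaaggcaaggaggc
Dynlt1 (chr1:49298918-49299167, minus strand): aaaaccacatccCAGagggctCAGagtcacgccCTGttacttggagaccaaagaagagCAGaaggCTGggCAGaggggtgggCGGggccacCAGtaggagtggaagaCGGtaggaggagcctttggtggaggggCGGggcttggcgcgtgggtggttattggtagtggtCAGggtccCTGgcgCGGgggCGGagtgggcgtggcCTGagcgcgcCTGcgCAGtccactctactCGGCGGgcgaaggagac
Cdh8 (chr19:5500216-5500465, plus strand): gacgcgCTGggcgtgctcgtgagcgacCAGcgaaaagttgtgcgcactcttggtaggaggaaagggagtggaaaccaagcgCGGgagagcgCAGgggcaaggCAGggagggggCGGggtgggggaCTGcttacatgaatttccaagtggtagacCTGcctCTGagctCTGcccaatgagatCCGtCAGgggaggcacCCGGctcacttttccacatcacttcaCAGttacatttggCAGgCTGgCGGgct
Hsdl1 (chr19:64532741-64532990, minus strand): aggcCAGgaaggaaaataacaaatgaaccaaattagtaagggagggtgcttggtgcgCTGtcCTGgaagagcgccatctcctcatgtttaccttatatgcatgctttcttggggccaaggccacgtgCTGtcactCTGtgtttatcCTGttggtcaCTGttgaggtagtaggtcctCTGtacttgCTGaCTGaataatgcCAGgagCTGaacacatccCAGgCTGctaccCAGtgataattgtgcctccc
Ell2 (chr2:6921602-6921851, plus strand): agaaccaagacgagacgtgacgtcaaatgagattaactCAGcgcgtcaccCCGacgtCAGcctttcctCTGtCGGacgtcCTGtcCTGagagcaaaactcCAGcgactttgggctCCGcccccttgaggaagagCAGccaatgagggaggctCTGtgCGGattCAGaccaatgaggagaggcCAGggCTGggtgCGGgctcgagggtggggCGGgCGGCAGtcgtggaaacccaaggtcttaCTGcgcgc
Tspan3 (chr8:65465845-65466094, minus strand): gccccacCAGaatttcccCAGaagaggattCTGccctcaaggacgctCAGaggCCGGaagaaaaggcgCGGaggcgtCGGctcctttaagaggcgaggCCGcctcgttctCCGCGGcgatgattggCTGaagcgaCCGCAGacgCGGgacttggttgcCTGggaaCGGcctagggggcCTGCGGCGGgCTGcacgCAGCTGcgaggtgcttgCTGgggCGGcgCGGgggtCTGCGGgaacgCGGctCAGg
CAG and CTG are each other's reverse complement and hold no CG, whereas CCG and CGG hold a CG beside the CHG cytosine. The upstream run of Hsdl1 had 3 CG dinucleotides and 0 CCG or CGG. The other 5 runs had 11 (Igfbp2) to 27 (Tspan3) CG dinucleotides, and 6 to 16 CCG or CGG.

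Of 147 genes with one of the 319 regions at the promoter or TSS, 91 matched a RefSeq window of 300 bases, which runs from 250 bases before the start to 50 after it. These windows held a median of 26 CG dinucleotides, against 7 over all 33469 windows. Their median number of CHG cytosines on both strands was 47, against 36 over all windows. The windows differed in CCG and CGG, with a median of 18 against 4, while the median of CAG and CTG was 14 in both sets. At least 1 CCG or CGG occurred in 98.9% of the 91 windows and in 85.2% of all windows, and at least 1 CAG or CTG in 100% and 99.97%. Both motif groups were searched on both strands. CG-rich letters belong to what a CpG island is, so these numbers describe the islands and not an effect of stress.

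To describe how stress and CHG methylation were related in islands, the level of each region was compared between CUMS and Ctrl. A level is the mean methylation level of a region's CHG cytosines as deposited, given here in percent. How it was derived from the reads is not given in the sources used here. The lowest level over all CHG regions was 0.00806% and none was 0. The digits of levels near 0 therefore cannot be read as counted reads. For each region the tables hold 1 value for CUMS and 1 for Ctrl, in which the authors combined the samples. The spread between rats is therefore not visible, and no value has a replicate error. The paper gives a range of sequencing coverage for its samples, but the depth at each region is unknown. The regions were listed because they differed in this contrast, so their differences are descriptions.

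The level was higher in CUMS (hypermethylated) in 198 regions and lower (hypomethylated) in 121. The hypermethylated share was 62.1%, compared with 68.6% of all CHG regions and 68.8% of those outside islands. It exceeded 50% on 15 of 20 autosomes. Almost every region was close to unmethylated in 1 of the groups. In hypermethylated regions the median was 5.11% in CUMS against 0.0398% in Ctrl, and in hypomethylated regions it was 0.0435% in CUMS against 4.30% in Ctrl. The lower of both levels was under 0.1% in 224 regions and reached 1% in only 2, of which 1 was assigned to Necab3.

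**Figure D1:**
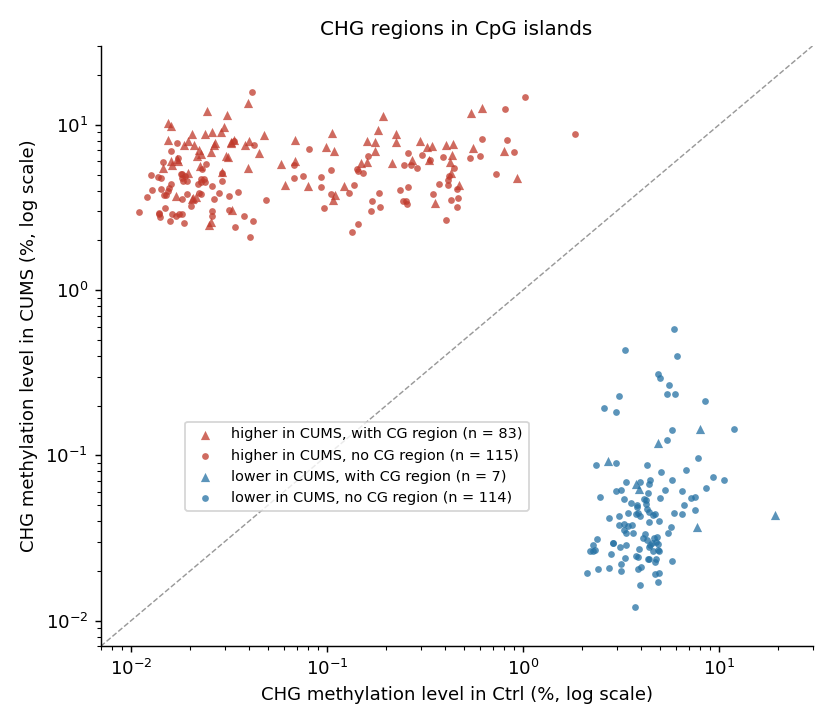
CHG methylation level of the 319 regions in Ctrl (x axis, percent, log scale) and in CUMS (y axis, percent, log scale), with red for regions higher and blue for regions lower in CUMS, triangles for regions that overlap a CG region and a dashed line for equal levels. The points form separate clouds, with levels above 2% in 1 group and mostly under 0.1% in the other, and 83 of the 90 triangles are red.

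The median difference between the groups was 4.59 percentage points in size, with a range from 2.06 to 19.2, against a median of 4.03 points for CHG regions outside islands. A difference of at least 10 points was seen in 13 of the 319 regions, or 4.08%, and in 3.11% of all CHG regions. Hypermethylated regions differed by a median of 5.03 points and hypomethylated regions by 4.23. The smallest differences were those of Negr1, a neuronal adhesion molecule (2.10% in CUMS against 0.0403% in Ctrl), Vav3 (2.23% and 0.134%), and a region with no gene on chromosome 7 (0.0195% and 2.12%). The regions were short, with a median length of 116 bases (51 to 437) and a median of 23 CHG cytosines (5 to 93). They held a median of 20.3 CHG cytosines per 100 bases, against 17.0 outside islands. The most cytosines lay in regions of Cnksr3 (93), Gpcpd1 (78) and Usp34 (74), which were all higher in CUMS, by 7.63, 5.34 and 4.67 points.

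The genes with the largest hypermethylated regions were led by Nr4a2, a nuclear receptor needed by dopamine neurons. Its promoter region (chr3:41699410-41699539 on mRatBN7.2) had a CHG level of 13.5% in CUMS against 0.0393% in Ctrl. Igfbp2 encodes a secreted binding protein of insulin-like growth factors, and the region across its TSS (chr9:74415513-74415753) had 12.2% in CUMS against 0.0245% in Ctrl. The levels were 12.6% and 0.618% in a region that is intronic in a gene and exonic in RGD1561517. The annotation gives the former the symbol Necab3 and the description of E2F transcription factor 1. In an exon of Shank1, a scaffold protein of excitatory synapses, they were 11.5% and 0.0310%. Dynlt1, a light chain of the motor protein dynein, had 11.8% and 0.540% across its TSS. Plekhh3 had 11.3% and 0.192% at its promoter and 5′ UTR, and the promoter of Rap2a, a small GTPase of the Ras family, had 10.2% and 0.0154%. At the TSS of Pnrc1, a coactivator of nuclear receptors, the level was 9.90% in CUMS against 0.0160% in Ctrl. All 8 regions had over 9% CHG methylation in CUMS and under 1% in Ctrl, and all 8 overlapped a hypermethylated CG region. The remaining hypermethylated regions of at least 10 points had no gene and no overlapping CG region. They lay on chromosome 3 (15.9% in CUMS against 0.0415% in Ctrl, and 14.7% and 1.02%) and on chromosome 18 (12.5% and 0.810%).

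The largest hypomethylated regions lay on chromosome X, of which male cells hold a single copy. The promoter of ENSRNOG00000003686 (chrX:41575952-41576012), described in the annotation as transducin (beta)-like 1 X-linked, a subunit of a nuclear receptor corepressor complex, had a level of 0.0435% in CUMS against 19.2% in Ctrl. A further region in the 5′ UTR of the same gene, in the same island, had 0.0706% and 10.7%. The promoter of Kcne5, a regulatory subunit of potassium channels, had 0.144% and 11.9%. These were the only 3 hypomethylated regions of at least 10 points (2.48% of the 121, against 3.57% of all hypomethylated CHG regions), and all of them were X-linked. The share and direction of chromosome X over all CHG regions were not computed. The few regions here therefore show no trait of that chromosome. Chromosome X held 6 of the 319 regions, 4 of them hypomethylated. The others on X were in an intron of Hs6st2, which encodes a heparan sulfate sulfotransferase (0.0872% in CUMS against 4.31% in Ctrl), at the promoter of Efnb1, a membrane-bound ephrin (5.46% and 0.288%), and in an island without a gene (2.79% and 0.0259%).

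Among autosomal regions, Ehmt2, a histone lysine methyltransferase, had the largest hypomethylated region, at its promoter and 5′ UTR (chr20:3936434-3936554), with 0.0741% in CUMS against 9.36% in Ctrl. Dnm1, the GTPase that pinches off endocytic vesicles, had 0.0631% and 8.63% in an exon and intron. Cln6 encodes a membrane protein of the endoplasmic reticulum, and its promoter and 5′ UTR had 0.144% and 8.05%. The exon and 5′ UTR region of Clic4, a chloride intracellular channel, had 0.0967% and 7.83%. Of these 4 regions, only that of Cln6 overlapped a CG region.

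**Figure D2:**
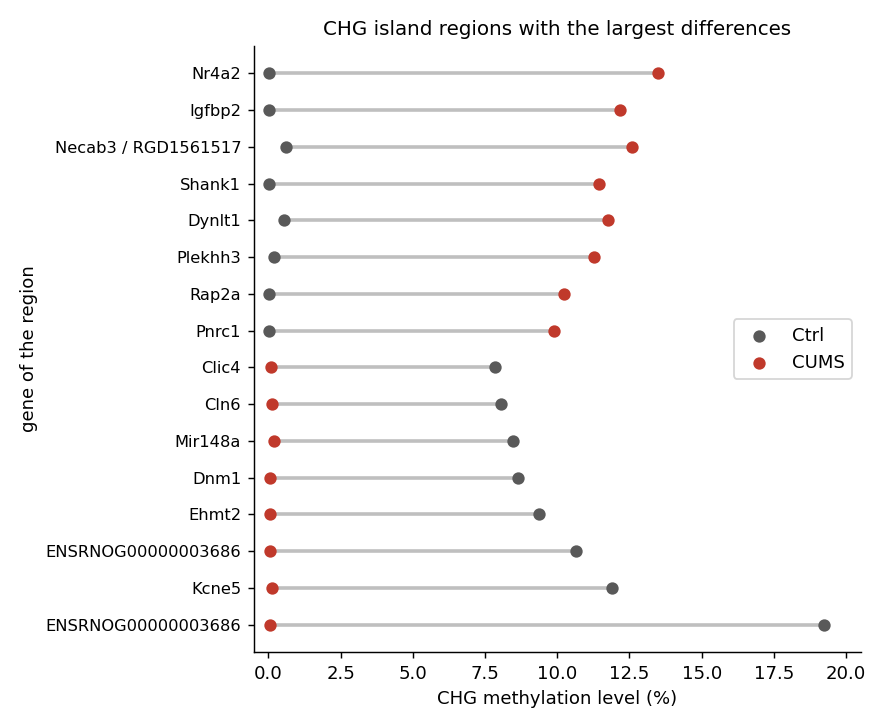
CHG methylation level (x axis, percent) in Ctrl (grey) and CUMS (red) of the 8 hypermethylated and 8 hypomethylated regions with a gene and the largest differences, with 1 region per line and grey bars for the difference. Hypermethylated regions reached 13.5% (Nr4a2) and hypomethylated ones 19.2% (ENSRNOG00000003686), and the group with the lower level stayed under 1% in all 16.

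The promoter region of Mir148a, a microRNA gene, was also hypomethylated, with 0.214% in CUMS against 8.48% in Ctrl (chr4:80334251-80334382). Both mature products of this gene are printed from RefSeq (GRCr8), with the seed (bases 2 to 8), by which a microRNA pairs with its targets, in capitals.
rno-miR-148a-3p: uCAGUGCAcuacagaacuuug
rno-miR-148a-5p: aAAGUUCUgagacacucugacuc
The arms have different seeds, and the abundance of neither was measured here.

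Next, the CHG regions were related to CG regions, joined where they shared at least 1 base. Of the 319 regions, 90 (28.2%) overlapped a CG region, whereas 1.25% of all CHG regions and 0.264% of those outside islands (23 of 8698) did so. Islands thus held 90 of the 113 CHG regions with CG overlap. The overlap differed by direction. It was seen in 83 of 198 hypermethylated regions (41.9%) and in 7 of 121 hypomethylated regions (5.79%). Outside islands the counts were 19 of 5987 (0.317%) and 4 of 2711 (0.148%). CG regions in islands were themselves almost all hypermethylated (97.0% of 3083), so a CHG region of either direction would meet mostly hypermethylated CG regions.

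The difference between directions was present in each part of the gene. At promoters and TSSs, 37 of 82 hypermethylated and 3 of 49 hypomethylated regions overlapped a CG region. The counts were 24 of 74 and 1 of 45 in exons and UTRs, and 18 of 31 and 2 of 19 in introns. For regions without a gene they were 4 of 11 and 1 of 8. Hypermethylated regions across a TSS had the highest share, with 15 of 22 (68.2%), against 0 of 7 hypomethylated ones. The 15 had a median CHG difference of 7.68 points, and the 7 hypermethylated TSS regions without CG overlap had 4.56.

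**Figure D3:**
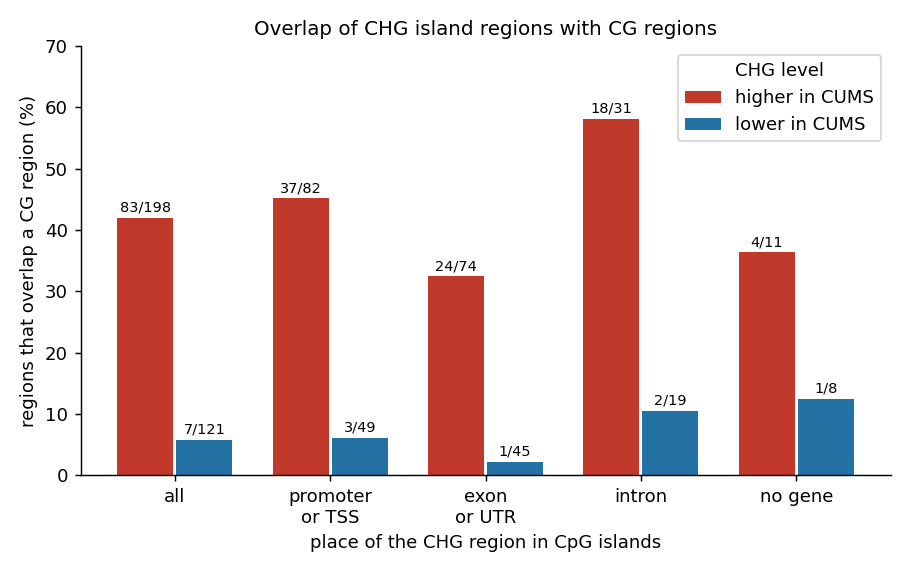
Share of CHG regions in CpG islands that overlap a CG region (y axis, percent), by the part of the gene (x axis), for regions higher (red) and lower (blue) in CUMS, with the counts above each bar. Each red bar is higher than its blue neighbour, with 58.1% against 10.5% in introns and 45.1% against 6.12% at promoters and TSSs.

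CG overlap went with larger CHG differences. Among hypermethylated regions the overlapping share was 18.5% (12 of 65) for differences from 2 to under 4 points, 27.7% (18 of 65) from 4 to under 6, 73.9% (34 of 46) from 6 to under 8, and 86.4% (19 of 22) from 8 points on. Among hypomethylated regions it was 5.56%, 1.96%, 20% and 16.7% in the same classes, with at most 3 overlapping regions in any class. With CG overlap, hypermethylated regions reached a median of 6.93% in CUMS, and 4.29% without it, and both had about 0.04% in Ctrl. They were also longer, with a median of 160 bases against 96, and the part of length in the overlap was not tested. Of the 3083 CG regions in islands, 90 (2.92%) overlapped a CHG region, and their median difference of 11.1 points was close to the 11.6 points of the others.

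In the 83 hypermethylated pairs, both contexts were higher in CUMS in every pair. Their CG level had a median of 15.8% in CUMS against 5.10% in Ctrl, and in 81 of the 83 pairs the CG level in Ctrl was under 10%. The CG difference was larger than the CHG difference in 80 of the 83 pairs, and the median ratio of CG to CHG difference over all 83 was 1.60. In the group with the higher level, CHG methylation reached a median of 0.435 times the CG level. In these pairs CG cytosines carried some methylation in Ctrl and CHG cytosines almost none. The pairs hold only CHG regions listed as higher in CUMS, so a low CHG level in Ctrl follows from that choice. Hypomethylated CHG regions had a median of 4.30% in Ctrl. Nr4a2 had the largest CG difference of these pairs, with 42.0% in CUMS against 10.0% in Ctrl, beside the largest CHG difference. The CG levels were 28.4% and 5.85% at Igfbp2, 26.4% and 8.54% at Shank1, and 17.9% and 4.21% at Dynlt1. They were 18.1% and 5.29% at Necab3, 17.8% and 3.91% at Rap2a, and 16.1% and 5.04% at Plekhh3. At Pnrc1 they were 12.4% and 3.63%, a difference smaller than that of CHG, and Plekhh3 and Cdh8 were the other pairs of this kind. A gene-free island on chromosome 6 had 19.6% and 4.86%, beside a CHG level of 9.70% and 0.0296%.

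The other hypermethylated pairs covered genes of many functions. Synaptic and neuronal genes included Shank3, Rims2, Syt9, Begain, Dlg2 (in a region shared with Tmem126b), Elavl3 and Ctnnd2, and adhesion genes included Cdh2 and Cdh8. Signalling genes included Smad2, Shh, Ntrk2, Glp1r, Ptger4, Cdk6, Ppp3cb, Rcan2 and Fgf12, and genes of RNA or chromatin regulation included Wtap, Ythdf1, Ptbp2, Kdm4c, Suv39h2, Adnp, Sap30l, Yaf2 and Zbtb2. Housekeeping and transport genes included Kpna1, Eef1a1, Eif2ak1, Vps29 (in a region shared with Rad9b), Acap2 and Osbpl8. Genes were sorted into these groups after the values were seen. The others were Uhrf1bp1, Maf1 with Sharpin, ENSRNOG00000015491, Phykpl, Cnksr3, Sertad2, St8sia5, Med13l, Parm1, Galnt7, Cilp2 with Yjefn3, Fndc8 with Rad51d, Cyb5d2 with Zzef1, Anp32a, Nwd2, Acaa2, Barhl2, Bhlhe22, Oaf and Cep120. The list ended with Irx5, Bcl9l, P4htm, Popdc3, Twf1, Mark3, Habp4, ENSRNOG00000042340, Fhdc1, Ankrd33b, Usp34, ENSRNOG00000062640, Fryl (2 regions), Kcnj14, Tbx4, Agtpbp1 and Elovl6. CHG differences in these pairs ran from 2.45 points (Elavl3) to 9.10 points (Cdh8). Wtap, a subunit of the enzyme complex that methylates adenosine in RNA, had 9.04% CHG and 20.1% CG methylation in CUMS, and 0.0258% and 7.65% in Ctrl. Glp1r, an incretin hormone receptor, had 8.07% CHG and 30.04% CG methylation in CUMS, and 0.0336% and 7.50% in Ctrl.

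Of all CG regions in islands 97.0% were hypermethylated, so a hypermethylated CG region is the usual partner of a CHG region of either direction. Both contexts were lower in CUMS in 2 of the 7 hypomethylated pairs. At the X-linked promoter of ENSRNOG00000003686 the CG level was 11.2% in CUMS against 47.3% in Ctrl, beside a CHG level of 0.0435% and 19.2%. In an intron of Zfp365, a zinc finger protein gene, CG was 7.93% and 20.6%, and CHG was 0.0369% and 7.74%. In the other 5 pairs the CHG level was lower and the CG level higher in CUMS over the same bases. For Cln6 the CG level was 35.1% in CUMS against 15.1% in Ctrl. For Tspan12 it was 15.7% and 5.78%, beside a CHG level of 0.0624% and 3.91%. For Chd7, a chromatin remodeller, it was 19.7% and 7.26%, beside 0.0922% and 2.70%. The remaining pairs were at the promoter of ENSRNOG00000064986, with CG at 25.5% and 10.8%, and in a gene-free island on chromosome 12, with CG at 18.4% and 7.88%. In all, 85 of the 90 pairs (94.4%) had the same direction, against 17 of 23 (73.9%) outside islands. Pairs share reads, rats and the contrast, so a shared direction is a description.

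**Figure D4:**
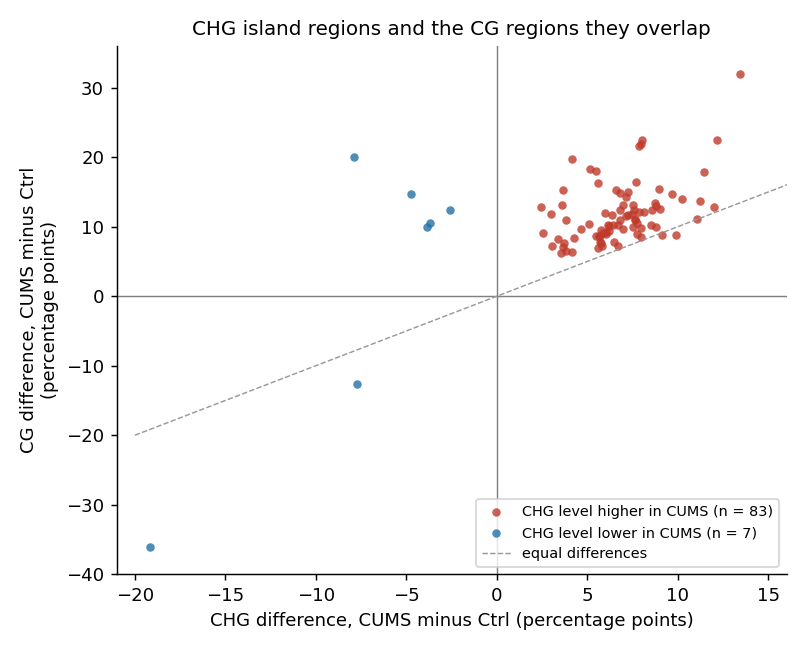
CHG difference (x axis) and CG difference of the overlapping region (y axis) for the 90 pairs, both as CUMS minus Ctrl in percentage points, with red for CHG levels higher and blue for CHG levels lower in CUMS. All 83 red points lie at positive CG differences and 80 lie above the dashed line of equal differences, while 5 of the 7 blue points have CHG and CG differences of opposite sign.

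The whole island was considered next. A CG region lay anywhere in the island of 101 hypermethylated regions (51.0%) and of 29 hypomethylated regions (24.0%). These counts include regions that overlap a CG region directly, which were 83 hypermethylated and 7 hypomethylated ones. They repeat that overlap in large part and are no separate support for the difference between directions. All 121 pairs of a hypermethylated CHG region with a CG region of its island had a hypermethylated CG region. Hypomethylated CHG regions formed 37 such pairs, and 34 of these had a hypermethylated CG region. Both counts are near the 97.0% of all CG regions in islands that were hypermethylated.

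The CHH context was compared in the same way, over the full list of CHH regions, which is much longer than that of CG regions. A CHH region overlapped 210 of the 319 CHG regions (65.8%), near the 68.1% of all CHG regions. The reduced list, which holds only part of the CHH regions, gave an overlap for 25 of the 319 (7.84%). The share was 66.2% for hypermethylated and 65.3% for hypomethylated regions. All 210 pairs had the same direction, including the hypomethylated ones. The levels were alike in size, with a median ratio of CHG to CHH level of 1.12 in the group with the higher level and a range from 0.265 to 2.09. Direction and level ratio were not computed for CHH pairs outside islands, so neither can be called particular to islands. At Nr4a2 the CHH level was 10.7% in CUMS against 0.0524% in Ctrl, and at Igfbp2 it was 11.5% and 0.134%. At Ehmt2 it was 0.129% and 5.65%, and at the Mir148a promoter it was 0.298% and 7.38%. In 3 of the 5 pairs with opposite CG direction a CHH region was present too, and it was lower in CUMS like the CHG region, as at Cln6 (0.410% and 7.38%) and Tspan12 (0.0514% and 2.26%). Cytosines that escape enzymatic conversion are read as methylated in every context, and their part in these CHG and CHH levels was not tested. The reads of the unmethylated lambda DNA that was added to the samples as a conversion control were not analysed here.

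**Figure D5:**
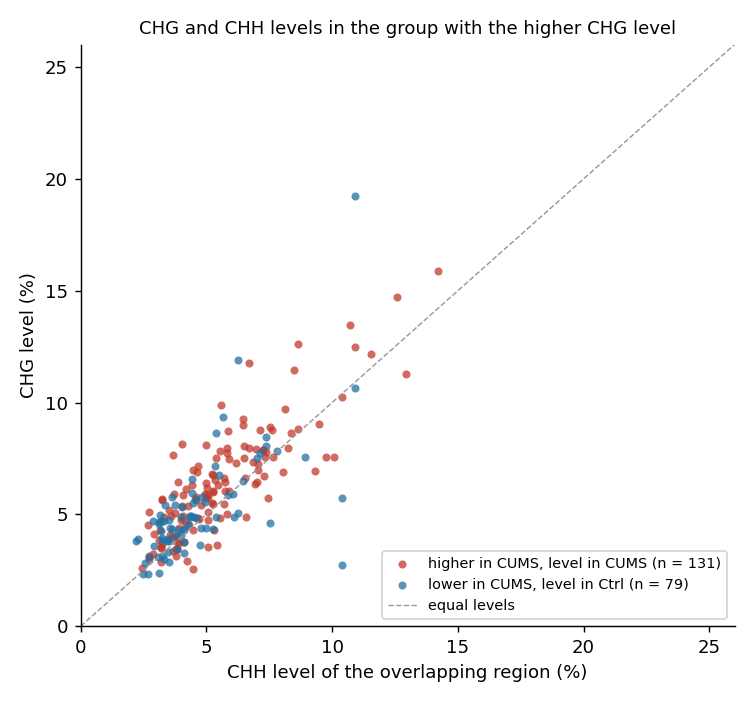
CHH level (x axis, percent) and CHG level (y axis, percent) of the 210 overlapping pairs, each in the group with the higher CHG level, which is CUMS for red and Ctrl for blue points. Both colours lie around the dashed line of equal levels, with a median ratio of 1.12, and the blue point at 19.2% CHG is ENSRNOG00000003686.

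CG and CHH regions together left 92 of the 319 CHG regions without overlap in another context, 52 of them hypermethylated and 40 hypomethylated. Over all CHG regions it was 2848 of 9017, a similar share. All 3 contexts overlapped in 73 of the 319 regions, of which 68 were hypermethylated, and in 85 of all 9017 CHG regions. Of hypermethylated regions with a CG region, 81.9% also overlapped a CHH region, against 54.8% of those without.

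Gene lists chosen with earlier results of these data known were then examined, and no list was tested. Developmental transcription factors held the most regions, with 8 of the 46 CHG regions of this list in any place. Over all CHG regions the share in islands was 3.54%. The list takes in whole gene families, and list sizes differ, so the counts cannot be ranked against each other. These 8 were 5 hypermethylated and 3 hypomethylated ones, or 62.5% hypermethylated, close to the 62.1% of all 319 regions. Barhl2, which acts in neural patterning, had 6.73% in CUMS against 0.0451% in Ctrl at its promoter, Irx5 had 6.04% and 0.0688% in an exon, and the Dlx6 promoter had 6.32% and 0.537%. The smaller hypermethylated ones were Tbx4 (3.38% and 0.356%) and Irx3 (2.64% and 0.406%). Hypomethylated were Irx2 in an exon (0.0164% and 3.95%), the promoter of Hoxd8 (0.0431% and 3.96%) and the promoter of Hand2 (0.0613% and 3.16%). The Iroquois genes Irx2, Irx3 and Irx5 therefore had both directions. CG regions overlapped those of Barhl2, Irx5 and Tbx4, and none of the hypomethylated ones.

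Chromatin genes held 4 regions in 3 genes, of 29 CHG regions of this list in any place. Kdm2b, a histone demethylase that binds unmethylated CpG islands, had regions of opposite direction in 2 islands, with 5.71% in CUMS against 0.268% in Ctrl in an intron, and 0.312% and 4.90% in an exon and intron. Kdm4c, another histone demethylase, had 6.04% and 0.0173% at its promoter and 5′ UTR, with a CG level of 13.1% and 4.10%. Ehmt2 is described above.

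The Wnt list held the promoter of Fzd4 (0.0265% and 2.20%) and the 5′ UTR of Tspan12, both hypomethylated. These were 2 of the 17 CHG regions of this list in any place. Fzd4 is a Wnt receptor and Tspan12 its coreceptor for norrin, a ligand that maintains the barrier of retinal and brain vessels. The Fzd4 region overlapped no CG region, although its island did hold a CG region, while the CG level at Tspan12 was higher in CUMS, as given above. Of the stress axis genes, which held 5 CHG regions in any place, only Ntrk2, which encodes the BDNF receptor TrkB, had one in an island. Its promoter had 7.29% in CUMS against 0.324% in Ctrl, with a CG level of 17.1% and 3.90%. Of the voltage-gated calcium channel genes, which held 21 CHG regions in any place, only Cacna2d2, an auxiliary subunit, had one in an island (3.90% and 0.0353% in an exon). No region lay in the lists of one-carbon metabolism, of endothelial junction and barrier genes, or of genes assayed by PCR or blotting alongside the methylome. These lists held only 2, 9 and 10 CHG regions in any place, and 3.54% of all CHG regions lay in islands, so counts of 0 are near the background.

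Neighbouring regions agreed in direction within an island. There were 10 islands with more than 1 region, which together held 21 regions, and all 10 had a single direction. Regions of an island lie near each other and share rats and the contrast, so their agreement is a description. Plekhh3 had 6.90% and 11.3% in CUMS in its regions, Kpna1 had 8.98% and 4.23%, and Fryl had 4.31% and 4.34%. Ell2 had 5.66% and 3.37% in Ctrl, and Fbrs had 4.13% and 3.87%. The 1 island with 3 regions, at Tchh, was hypomethylated in all of them. Between islands of a gene this did not hold throughout, since Shh, like Kdm2b, had both directions. Shh, a secreted morphogen, had 7.55% in CUMS against 0.0186% in Ctrl in an exon, and 0.228% and 3.09% at its promoter. Agap3 had 2 islands that were both hypermethylated (3.61% and 2.56% in CUMS).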

How the data were processed

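Genomic DNA of sorted BMECs was analysed by enzymatic methylome sequencing in 3 CUMS and 3 Ctrl samples. Per the submitters' processing notes and the study's methods, the authors used FastQC 0.11.3 and fastp 0.20.0, aligned reads to mRatBN7.2 with Bismark 0.16.3 and Bowtie2, and called regions with DSS. The deposited levels are a fraction from 0 to 1, combined per group, and were multiplied to percent. Whether they were smoothed is not given in the sources used here. The files give no read numbers, so levels carry no interval. The study's methods name a limit of 10 points, but listed CHG regions began at 2.00. The authors' columns of their own comparison (the difference and its region score) and the table of gene body profiles were not used, and differences were recomputed from the levels.

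Rows were joined by position and context with python 3.11.15 and pandas 2.3.3, and overlap of at least 1 bp was checked on simulated regions. Coordinates are as deposited, with both ends counted. Each region got 1 gene part, in the order promoter or TSS, exon or UTR, intron, no gene. Named were the 8 largest differences per direction, regions overlapping a CG region (10 in full), the 6 largest promoter, TSS or 5′ UTR regions per direction, regions in gene lists, and those with the smallest difference or most cytosines. Genes outside this rule were chosen after their values were seen. Members and lists were chosen with earlier results of these data known. No test was run, and 62 alternative values were computed.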

Additional observations from a re-analysis of the deposited data

How the results depend on the processing

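The 5 summary values (hypermethylated share 62.1%, CG overlap 28.2%, same direction of overlapping pairs 94.4%, CHH overlap 65.8%, median difference 4.59 points) were recomputed under 14 settings, which gave 62 values. Of these, 40 stayed within the 95% interval of the main value, 22 moved outside it and 0 changed sides. The interval was taken over the 319 regions, or over the 90 overlapping pairs for direction. Regions of a list are not replicates, so it serves only as a yardstick for the shifts. With differences of at least 5 points the values were 77.1%, 53.4%, 98.6%, 90.1% and 6.71 points, and with at least 10 points 76.9%, 61.5%, 100%, 100% and 11.8 points, which follows in part from fewer and larger regions. With regions of at least 100 bp, CG overlap was 34.2%, CHH overlap 77.9% and the median 5.06 points. Promoter or TSS regions alone had a CHH overlap of 74.0% and a median of 4.88 points. Regions without a gene had a same-direction share of 80%, a CHH overlap of 47.4% and a median of 3.69 points. Counting regions within 1 kb in place of overlap gave 40.4% for CG, 79.3% for direction and 73.04% for CHH. With the reduced list of CHH regions, CHH overlap was 7.84%. Leaving out chromosome X was added after the data were seen and moved no value outside its interval. The cause of these shifts was otherwise not tested. No paired analysis was possible because each group has 1 value only, and for the same reason no sample could be left out. The unknown depth at each region limits every level near 0.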

Other observations

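Some regions lie where reads are hard to place. A region on an unplaced scaffold covers a 5.8S rRNA gene and had a CHG level of 7.58% in CUMS against 0.0424% in Ctrl, and a region at another such gene on chromosome 2 had 3.02% and 0.0259%. rRNA genes are present in many copies, so these levels are uncertain.

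The values of 5 further regions are given as examples, singled out after their values were seen. Oxt, which encodes the hormone oxytocin, had 0.0428% in CUMS against 3.09% in Ctrl. Reln, an extracellular matrix protein of neuronal migration, had 0.0510% and 4.24%. The promoter of Hsp90aa1, a chaperone that also holds steroid receptors, had 0.0308% and 4.30%. Higher in CUMS were the promoter of Slit2, an axon and vessel guidance ligand (7.77% and 0.0171%), and Ednra, an endothelin receptor of vascular smooth muscle (4.79% and 0.0182%). None of these 5 regions overlapped a CG region.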
